A study of Drosophila melanogaster with 27 samples.

Results

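Ilp2, Ilp3 and Ilp5 are the insulin-like peptide genes of the fly brain. They were taken as the probe sets that the array annotation assigns to 1 of these 3 gene symbols alone. Ilp2 and Ilp5 each had 1 probe set (1629220_at and 1624745_at), so 2 of the 3 genes were measured, among 11982 genes with a probe set of their own. No probe set was annotated to Ilp3, which was not analysed here. Both probe sets had log2 values above 4 on all 27 arrays, and so passed the filter on low values in every group.

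The insulin-like peptides are secreted hormones of the insulin and relaxin type. Those of the brain act through the insulin receptor InR on growth, sugar and lipid stores, reproduction and lifespan. In adult flies Ilp2, Ilp3 and Ilp5 are made by the insulin-producing cells, a cluster of median neurosecretory neurons in the pars intercerebralis of the brain that releases them into the circulation. Ilp2 is known as the main peptide of these cells in blood sugar control, and Ilp5 transcription responds to diet. Ilp5 is also made outside the brain, in ovarian follicle cells and renal tubules.

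The arrays measured RNA in whole heads of adult Drosophila melanogaster kept in 12 h of light and 12 h of dark. The tissue was sampled as IP, the RNA recovered with an immunoprecipitate of AGO1, the Argonaute protein that carries microRNAs in flies, and as INPUT, the RNA of the head protein extract. Heads of a genotype called Tim-Dcr were taken at Zeitgeber time 3 (ZT3, 3 h after lights on) and ZT15, with 1 IP and 1 INPUT array at each time. The labels do not say which alleles or drivers that name stands for, nor the sex or age of any fly. Wild-type heads, with no strain named, were taken at ZT3, ZT7, ZT11, ZT15, ZT19 and ZT23, with 12 IP and 11 INPUT arrays, 2 per fraction and time except 1 INPUT array at ZT3. The wild-type replicates are biological ones by the series' own text. Control-serum precipitates were not analysed here, and non-specific binding was not subtracted.

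The arrays of the 2 genotypes stood apart in RNA of other body parts. The summed linear signal of 21 male accessory gland and sperm markers was 607 to 7142 units in Tim-Dcr INPUT, against 45428 to 70965 units in wild-type INPUT. For 10 midgut markers it was 488 to 884 units in Tim-Dcr INPUT, against 10655 to 19714 units in wild-type INPUT. Both kinds of RNA were thus measured in material labelled as head, at a higher level in wild type. The insulin-producing cells have no marker list of their own here, because the peptides themselves define them. None of the 14 neuronal or 9 glial markers measured was below a log2 value of 4 on all INPUT arrays of a genotype. Array medians of the deposited log2 values were 5.66 to 5.93 in Tim-Dcr INPUT and 6.11 to 6.19 in wild-type INPUT. They were 4.34 to 4.54 in Tim-Dcr IP and 4.77 to 4.90 in wild-type IP.

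Ilp2 and Ilp5 kept a narrow range over the day in wild-type heads. In IP, Ilp2 had log2 values of 4.65 and 5.28 at ZT3, 4.54 and 4.79 at ZT7, 5.20 and 4.94 at ZT11, 4.87 and 4.78 at ZT15, 4.78 and 4.53 at ZT19, and 5.12 and 4.93 at ZT23. In INPUT, Ilp2 had 6.87 at ZT3, 7.23 and 6.76 at ZT7, 7.18 and 7.18 at ZT11, 6.68 and 7.12 at ZT15, 7.02 and 6.65 at ZT19, and 7.04 and 7.11 at ZT23. The mean of a time was highest at ZT11 in both fractions, at 5.07 in IP and 7.18 in INPUT. In INPUT it was lowest at ZT19, at 6.83. In IP the ZT7 and ZT19 means were both 4.66, so no single lowest time stood out. The time means of Ilp2 in IP spanned 0.41 log2 units, where the 2 arrays of one time differed by a median of 0.25 and by at most 0.63. In INPUT its time means spanned 0.35 log2 units, beside a median difference between replicates of 0.37.

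Ilp5 spanned a slightly wider range of time means. In IP, Ilp5 had log2 values of 5.50 and 5.51 at ZT3, 5.64 and 4.40 at ZT7, 5.34 and 5.04 at ZT11, 5.24 and 5.23 at ZT15, 5.52 and 5.14 at ZT19, and 5.67 and 5.27 at ZT23. In INPUT, Ilp5 had 6.32 at ZT3, 6.41 and 5.99 at ZT7, 6.74 and 6.06 at ZT11, 6.05 and 6.41 at ZT15, 6.38 and 6.10 at ZT19, and 6.75 and 6.58 at ZT23. The second IP replicate at ZT7 was the lowest Ilp5 value of all arrays, 1.24 below its partner. The ZT23 time mean was the highest in INPUT, but the 2 ZT23 values overlapped those of ZT11. The time means of Ilp5 spanned 0.49 log2 units in IP, with a median replicate difference of 0.34. They spanned 0.47 in INPUT, with a median replicate difference of 0.36.

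**Figure D1:**
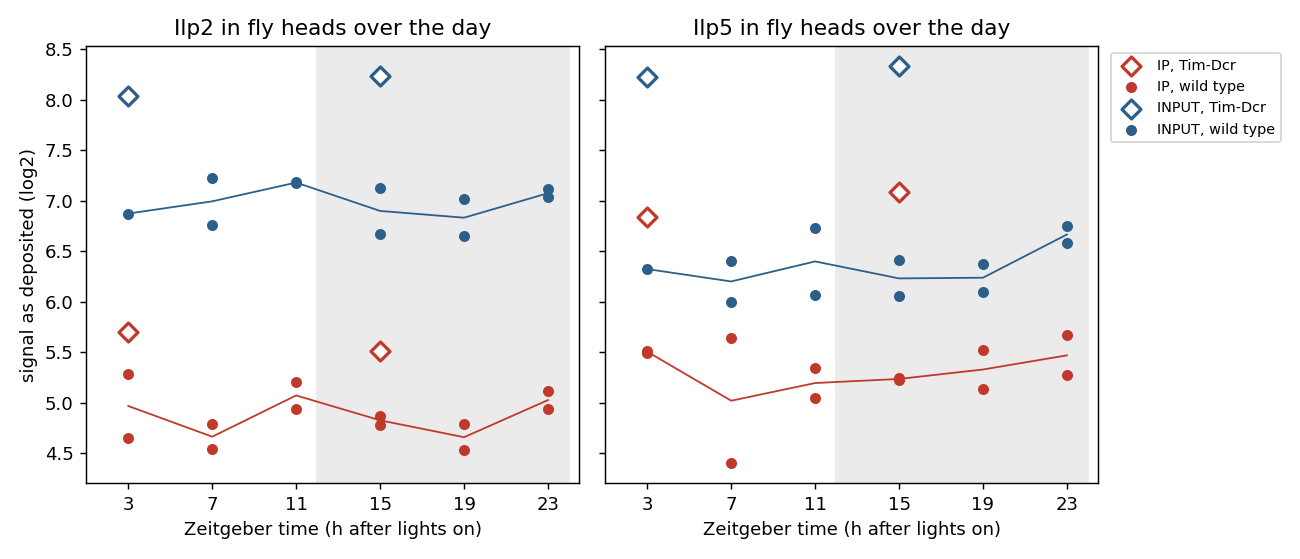
Deposited log2 signal of Ilp2 (left) and Ilp5 (right) against Zeitgeber time in hours, 1 point per array, with open diamonds for Tim-Dcr, filled points for wild type, lines through the wild-type time means and grey for the dark phase. The Tim-Dcr values lie above all wild-type values of the same fraction, and the wild-type means move by 0.35 to 0.49 log2 units over the day.

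A 24 h rhythm was tested with a cosine and sine term in limma, over all 15517 probe sets kept. Neither gene passed in IP, where 0.928% of all probe sets did, or in INPUT, where 0.593% did. The fitted peak-to-trough range of Ilp5 was 0.38 log2 units in IP (SE 0.24, limma adjusted p = 0.998), and that of Ilp2 in IP was 0.09 (SE 0.19, adjusted p = 0.998). In INPUT the fitted range was 0.25 for Ilp5 (SE 0.25, limma adjusted p = 1.00) and 0.16 for Ilp2 (SE 0.19, adjusted p = 1.00). For the rhythm of IP relative to INPUT, 174 of the 15517 probe sets had an unadjusted limma p below 0.05. That share is itself smaller than 0.05. After adjustment the difference in rhythm between IP and INPUT passed for 0% of all probe sets. The fitted range of that difference was 0.16 for Ilp5 and 0.13 for Ilp2, each with limma adjusted p = 1.00. With 2 arrays a time, ranges of the size of these standard errors could not be told from none.

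In wild-type heads the 2 peptide mRNAs divided differently between the AGO1 precipitate and the extract. The fractions had different array medians, so each array was centred on its own median for this comparison, and values are relative to the average probe set of the array. On this scale Ilp2 was lower in IP, with a log2 difference of -0.79 (SE 0.10, adjusted p = 2.50e-06), a ratio of IP to INPUT of 0.578. A total of 29.6% of probe sets were called lower and 29.7% higher, so a call alone is common. By size, 6.96% of probe sets had a more negative value than Ilp2. All 11 wild-type pairs of IP and INPUT arrays with the same time and number had Ilp2 below 0, with a mean of -0.84 and a range of -1.32 to -0.40.

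Ilp5 was not called in the same fit, at 0.27 log2 units (SE 0.14, adjusted p = 0.126), a ratio of IP to INPUT of 1.20. It was above 0 in 8 of 11 pairs, with a mean of 0.24 and a range of -0.32 to 0.60. The 3 pairs below 0 were the second of ZT7, at -0.32, the first of ZT11, at -0.10, and the second of ZT23, at -0.05. With the pairs as fixed blocks the value was 0.26 and passed the test (adjusted p = 0.0136), where 33.4% of probe sets were called higher. It also passed, at 0.38 (adjusted p = 0.00741), without the second IP replicate at ZT7.

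The unequal division was tested directly through the Ilp5 value minus the Ilp2 value on the same array, in which array-wide scaling cancels. The 2 probe sets can differ in sensitivity, so only changes in this quantity between arrays are read. It was 0.42 ± 0.39 in wild-type IP (SD, n = 12) and -0.64 ± 0.22 in wild-type INPUT (SD, n = 11). Over the 11 wild-type pairs it was higher in IP by 1.08 (SD 0.42), in 11 of 11 pairs (exact sign-flip permutation test, two-sided p = 0.000977, the smallest these pairs can give). Relative to Ilp5, Ilp2 was thus less represented in IP than in INPUT in every pair.

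**Figure D2:**
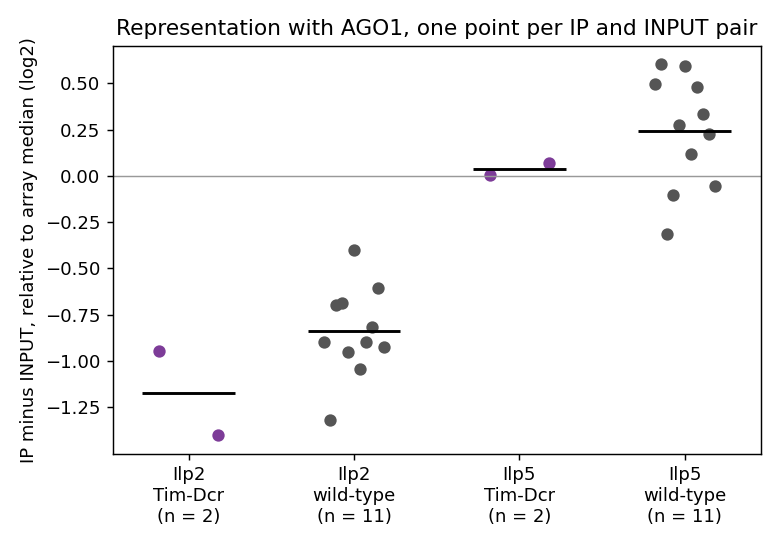
IP minus INPUT, in log2 units on median-centred arrays, for Ilp2 and Ilp5 in Tim-Dcr and wild-type heads, with 1 point per pair of arrays and a bar at the mean. Ilp2 lies below 0 in all 11 wild-type pairs, whereas Ilp5 lies above 0 in 8 of 11.

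No correlation of the 2 genes from array to array passed after adjustment, though that in INPUT was the larger and the arrays are few. Over the 12 wild-type IP arrays their centred values had Pearson's r = 0.28 and Spearman's rho = 0.25 (permutation p = 0.382 and 0.432). Over the 11 wild-type INPUT arrays they had r = 0.66 and rho = 0.58 (permutation p = 0.0309 and 0.0666), and adjusted over both fractions these were 0.0619 and 0.133. Without the 2 arrays farthest from the Ilp2 median, r was 0.12 in IP and 0.46 in INPUT. Leaving them out also narrows the Ilp2 range, which by itself can lower r. Arrays share their labelling and scaling, so part of any such r need not come from the cells.

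**Figure D3:**
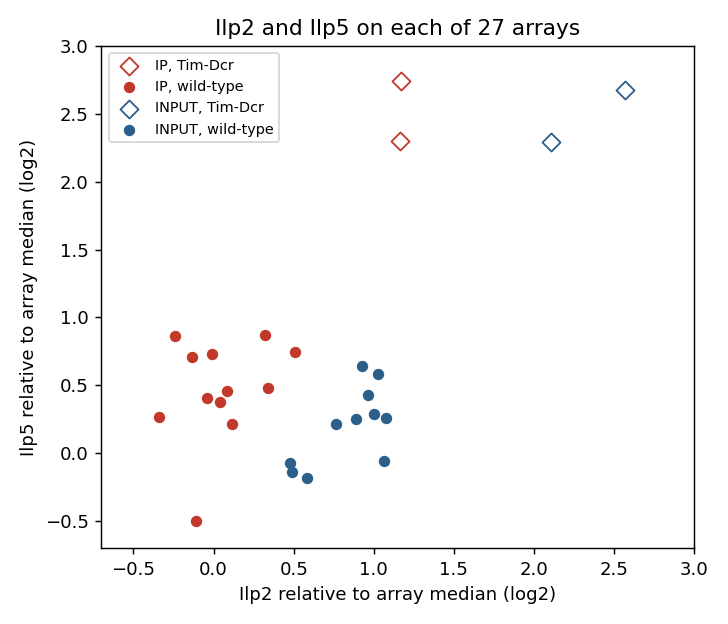
Ilp5 against Ilp2 on each of the 27 arrays, both in log2 units relative to the array median, with open diamonds for Tim-Dcr, filled points for wild type, red for IP and blue for INPUT. IP and INPUT form separate groups in both genotypes, with IP displaced towards lower Ilp2, and all 4 Tim-Dcr arrays lie above the wild-type arrays of their fraction on both axes.

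By Pearson's r over the 23 wild-type arrays, taken as deviations from the mean of each fraction, the genes most like Ilp2 among 11241 were UGP (0.82), Sdr (0.75), CG13408 (0.74), Prps (0.73) and Mtk (0.73). UGP encodes UDP-glucose pyrophosphorylase, Sdr a secreted decoy of the insulin receptor, Prps a phosphoribosyl pyrophosphate synthetase and Mtk the antimicrobial peptide metchnikowin. Ilp5 came at place 1188 in that order, with r = 0.42. The genes most like Ilp5 were CG18508 (0.82), Nepl18 (0.81), GLaz (0.79), Cyp4p1 (0.78) and Obp19b (0.78). Nepl18 is a neprilysin-like gene, GLaz a lipocalin, Cyp4p1 a cytochrome P450 and Obp19b an odorant-binding protein. Ilp2 came at place 1470. These are descriptions over 23 arrays that share processing, and the leading r values are the highest of many.

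Both peptide mRNAs were higher in Tim-Dcr heads, in IP and in INPUT, and Ilp5 by more. Ilp5 had log2 values of 6.84 and 7.09 in Tim-Dcr IP at ZT3 and ZT15, against 4.40 to 5.67 with a median of 5.31 over the 12 wild-type IP arrays. In INPUT, Ilp5 had 8.23 and 8.34 in Tim-Dcr at ZT3 and ZT15, against 5.99 to 6.75 with a median of 6.38 over the 11 wild-type arrays. No Tim-Dcr value overlapped the wild-type range. Set against the wild-type arrays of the same times, Ilp5 rose by 1.59 log2 units in IP (SE 0.27, 3.02-fold, adjusted p = 1.98e-04) and by 2.02 in INPUT (SE 0.29, 4.05-fold, adjusted p = 2.88e-05).

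Ilp2 had log2 values of 5.70 and 5.52 in Tim-Dcr IP at ZT3 and ZT15, against 4.53 to 5.28 with a median of 4.83 over the wild-type IP arrays. In INPUT, Ilp2 had 8.04 and 8.23 in Tim-Dcr at ZT3 and ZT15, against 6.65 to 7.23 with a median of 7.04 over the wild-type arrays. Here too the genotypes did not overlap in either fraction. Ilp2 rose by 0.71 log2 units in IP (SE 0.18, 1.64-fold, adjusted p = 0.00472) and by 1.26 in INPUT (SE 0.19, 2.40-fold, adjusted p = 5.49e-05). The IP call rests on both times, since 1 Tim-Dcr IP array alone gave 0.73 at ZT3 (adjusted p = 0.0665) and 0.69 at ZT15 (adjusted p = 0.0607).

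Of all 15835 probe sets, 6961 were called for the Tim-Dcr offset in IP, 4270 of them higher and the others lower. In INPUT 7805 were called, 5118 of them higher and the others lower. Calls of this kind were frequent, with 27% of probe sets called higher in IP and 32.3% in INPUT. The sizes were less so. The median over all 15835 probe sets was 0.17 log2 units in IP and 0.23 in INPUT on the deposited scale, and 0.52 and 0.59 on centred arrays. Relative to that median, Ilp5 rose by 1.42 in IP and 1.79 in INPUT, and Ilp2 by 0.54 in IP and 1.03 in INPUT. Only 66 probe sets had a larger value than Ilp5 in IP and 32 in INPUT. For Ilp2 these were 1145 in IP and 365 in INPUT. In whole heads, more insulin-producing cells and more RNA per cell cannot be told apart. Nor can the genotype be told apart from other differences between its samples and wild type. These include the unlike male and midgut RNA, and any difference in strain, sex or age, which the labels do not give.

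The offset had the same direction at both times. For Ilp5 it was 1.33 at ZT3 and 1.85 at ZT15 in IP, and 1.90 and 2.11 in INPUT. For Ilp2 it was 1.17 at ZT3 and 1.33 at ZT15 in INPUT. The difference between ZT15 and ZT3 was not called for either gene. For Ilp5 it was 0.52 in IP (SE 0.55, adjusted p = 0.804) and 0.21 in INPUT (SE 0.59, adjusted p = 0.999). For Ilp2 it was -0.04 in IP (SE 0.38, adjusted p = 0.978), or 0.18 on centred arrays, and 0.17 in INPUT (SE 0.41, adjusted p = 0.999). Over all probe sets, 2.1% were called for this difference in IP and 1.21% in INPUT. Intervals of this width leave room for sizeable differences between times.

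The Tim-Dcr offset was smaller in IP than in INPUT for both genes, but the difference did not pass for either. It was -0.55 for Ilp2 (SE 0.26, adjusted p = 0.268) and -0.43 for Ilp5 (SE 0.39, adjusted p = 0.590), where 2.73% of all probe sets were called in either direction. In the Tim-Dcr pairs at ZT3 and ZT15, centred IP minus INPUT was -0.95 and -1.40 for Ilp2 and 0.01 and 0.07 for Ilp5. All but the Ilp2 value at ZT15 lay within the wild-type range of the same gene. Ilp2 was therefore below the array's average probe set in IP relative to INPUT in every pair of both genotypes.

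Ilp5 rose more than Ilp2 on the same arrays. Ilp5 minus Ilp2 was 1.14 and 1.57 on the Tim-Dcr IP arrays, against -0.39 to 1.10 on the wild-type IP arrays. On the Tim-Dcr INPUT arrays it was 0.18 and 0.11, against -1.12 to -0.29 on the wild-type INPUT arrays. The mean difference between genotypes was 0.93 in IP (exact permutation test, two-sided p = 0.0220) and 0.79 in INPUT (exact permutation test, two-sided p = 0.0256), each the smallest p that 2 Tim-Dcr arrays allow. This quantity was chosen after the values were seen.

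Other peptide genes of the nervous system rose often in INPUT, and in IP about as often as all probe sets. Of 28 other neuropeptide genes tested, 8 (28.6%) rose and 0 fell in IP, beside 27% of all probe sets higher, with a median of 0.28. In INPUT 17 (60.7%) rose and 0 fell, beside 32.3%, with a median of 0.60. Nplp3 rose by 1.86 in IP and 1.33 in INPUT, and Nplp4 by 1.92 and 1.16. Both encode neuropeptide-like precursors. In 13 fits that left out 1 array, the INPUT call was lost in 2 for Nplp3 and in 1 for Nplp4. Their IP calls were kept in all such fits. SIFa, made by a few neurosecretory neurons of the same brain region, rose by 1.05 in IP and 1.12 in INPUT. In INPUT none of the 28 exceeded Ilp5, and Nplp3 alone exceeded Ilp2. In IP, Nplp3 and Nplp4 exceeded Ilp5, and these 2 with Pdf, SIFa and natalisin exceeded Ilp2.

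**Figure D4:**
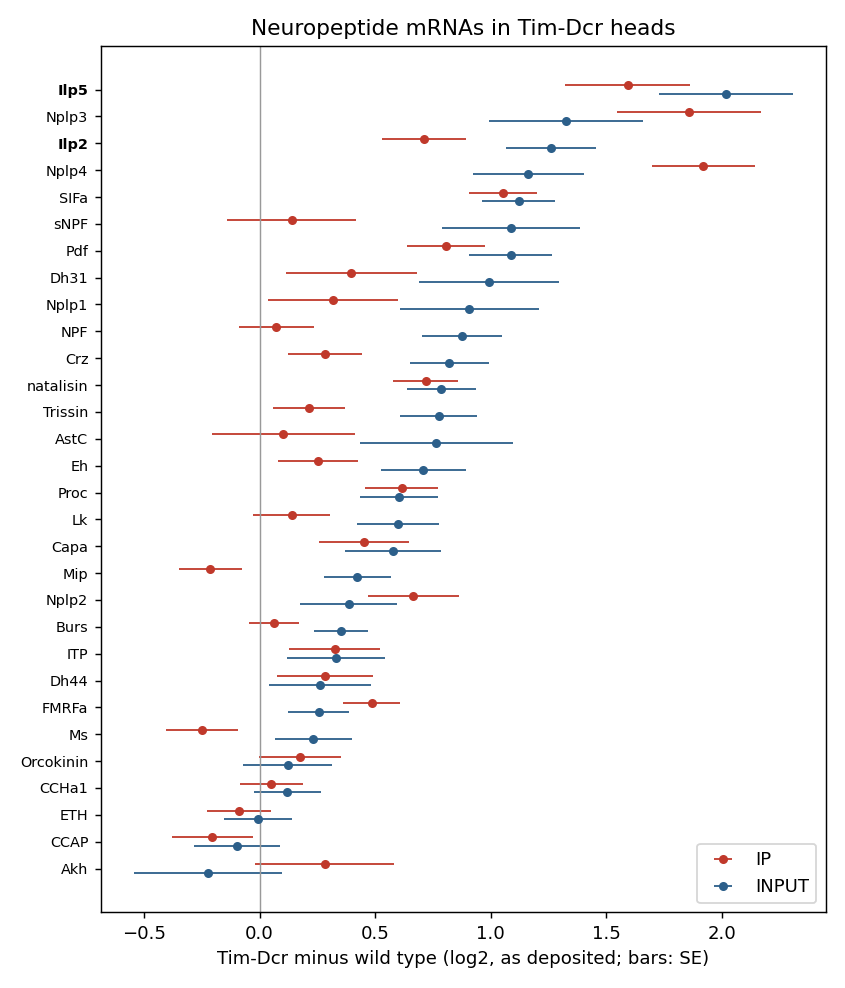
Tim-Dcr minus wild type in deposited log2 units, with standard errors as bars, for Ilp2, Ilp5 and the 28 other neuropeptide genes tested, ordered by the INPUT value, with IP in red and INPUT in blue. Ilp5 has the highest INPUT value at 2.02, and Nplp3 and Nplp4 have the highest IP values.

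Markers of the cell types of the head moved with the genotype too, to be read beside the 32.3% of all probe sets called higher in INPUT. Of 15835 probe sets 7805 were called in INPUT, 5118 of them higher and the others lower. Of 14 neuronal markers, 7 (50%) rose in INPUT and 0 fell, with a median of 0.51, and their summed signal was 20281 to 21999 units in Tim-Dcr INPUT, against 12591 to 18590 units in wild-type INPUT. Of 9 glial markers, 6 (66.7%) rose and 0 fell, with a median of 0.69 and a summed signal of 15929 to 16195 units in Tim-Dcr INPUT, against 10942 to 13528 units in wild-type INPUT. Of 9 fat body markers, 6 (66.7%) rose and 0 fell, with a median of 0.63 and a summed signal of 79193 to 82392 units in Tim-Dcr INPUT, against 53284 to 63658 units in wild-type INPUT. Lsp2, a storage protein, had the largest of these at 2.72. The yolk protein genes Yp1, Yp2 and Yp3 had the highest signals of the fat body list, and so dominate its sum. The fat body marker bmm was not called, but lay at 9.99 to 10.05 in Tim-Dcr INPUT, below the wild-type 10.13 to 10.50. Sex is not labelled, and whether the genotypes differed in the sex of the flies was not tested. Unlike the neuronal, glial and fat body lists, 20 of 21 male accessory gland and sperm markers fell in INPUT, with a median of -4.69. Of 10 midgut markers, 9 fell and 1 rose, with a median of -3.25. Of 8 photoreceptor markers 3 (37.5%) rose, a share near that of all probe sets, with a median of 0.12. Their summed signal overlapped, at 45052 to 48113 units in Tim-Dcr INPUT and 40611 to 50355 units in wild-type INPUT. Of 10 muscle markers 2 (20%) rose and 1 fell. Ovary markers, which include follicle cell genes, had 0 of 9 higher and 1 lower in INPUT, with a summed signal of 298 to 377 units in Tim-Dcr and 347 to 2999 units in wild type. Of the male lists and midgut, the marker Acp26Aa alone was below a log2 value of 4 on both Tim-Dcr INPUT arrays. The part of the fat body, photoreceptor, muscle and ovary markers in the rise of Ilp2 and Ilp5 was not tested.

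**Figure D5:**
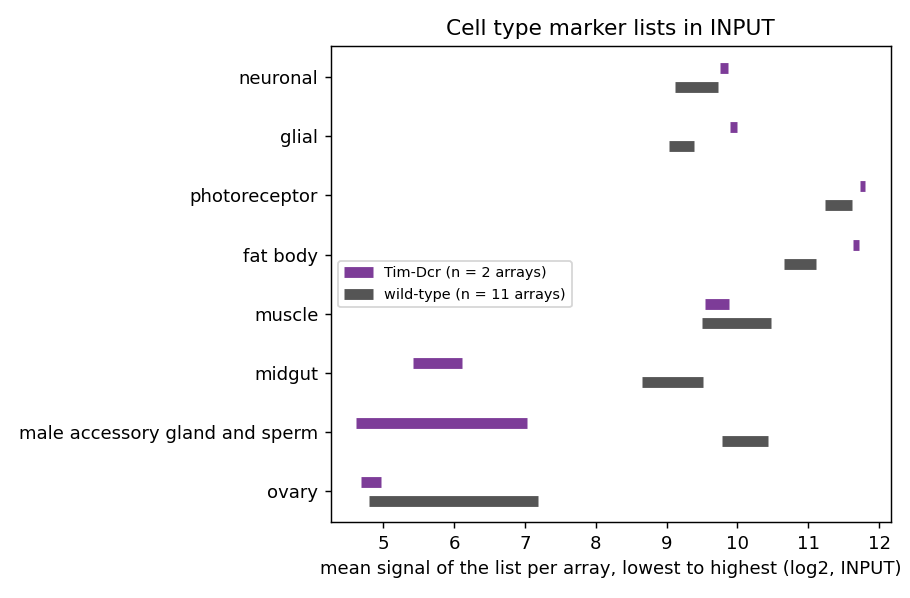
Mean log2 signal of each cell type marker list in INPUT, drawn as a bar from the lowest to the highest array, with Tim-Dcr (2 arrays) above wild type (11 arrays) in each pair. Neuronal, glial, photoreceptor and fat body lists are higher in Tim-Dcr without overlap, and midgut and male accessory gland and sperm lists are lower without overlap.

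Ilp5, and Ilp2 in INPUT, were also higher in Tim-Dcr relative to neuronal markers, glial markers and other neuropeptide genes. The level of each gene was taken relative to the mean log2 value of a marker list on the same array, in 12 comparisons chosen after the values were seen. Relative to neuronal markers, Ilp5 was higher in Tim-Dcr by 0.91 in IP and 1.53 in INPUT, and relative to glial markers by 1.22 and 1.27. Relative to the 28 other neuropeptide genes, Ilp5 was higher by 1.25 in IP and 1.43 in INPUT. Each of these 6 comparisons gave the smallest p that 2 Tim-Dcr arrays allow (exact permutation test, two-sided p = 0.0220 in IP and 0.0256 in INPUT, 0.0342 after adjustment over the 12). Ilp2 was higher in INPUT by 0.74 relative to neuronal markers, 0.48 relative to glial markers and 0.64 relative to neuropeptide genes, with the same p-values (exact permutation test). In IP, Ilp2 was at -0.02 relative to neuronal markers (exact p = 0.989), at 0.29 relative to glial markers (exact p = 0.132) and at 0.31 relative to neuropeptide genes (exact p = 0.0659). Within the 11 wild-type INPUT arrays no correlation of either gene with the body part markers passed. Pearson's r with the mean of the midgut markers was -0.17 for Ilp2 and 0.01 for Ilp5, and with the male accessory gland and sperm markers it was -0.03 and 0.26. Spearman's rho was -0.21, -0.05, -0.05 and 0.24 in the same order (permutation p from 0.442 to 0.977 for r and from 0.486 to 0.904 for rho, and 0.977 and 0.904 for each after adjustment over the 4). Without the 2 arrays farthest from the marker median, r was -0.29, -0.04, -0.05 and 0.20. The mean of the midgut markers spanned only 8.66 to 9.52 in wild-type INPUT, against 5.41 to 6.11 in Tim-Dcr INPUT. For the male markers it was 9.78 to 10.43, against 4.62 to 7.04. These correlations therefore cannot speak to a difference of the size seen between genotypes.

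The peptides were next set against the genes known to act on insulin-producing cells or downstream of them. Of 14 receptors reported on these cells, 3 (21.4%) rose in IP, beside 27% of all probe sets. In INPUT 12 (85.7%) rose and 0 fell, with a median of 0.88. Among those of INPUT were sNPF-R, the receptor of short neuropeptide F (1.38), mth, the receptor of Stunted (1.15), grnd, a receptor of the tumour necrosis factor Eiger (1.13), and Lkr, the leucokinin receptor (1.13). Of 10 genes for signals from fat body and gut to the cells, 2 (20%) rose and 0 fell in IP, with a median of 0.12. In INPUT 7 (70%) rose and 0 fell, with a median of 0.71. CCHa2, a peptide of fat body and gut that promotes Ilp2 and Ilp5 expression, rose by 1.77 in INPUT. egr, which encodes Eiger, rose by 0.96, and Lst, the secretion-suppressing peptide limostatin, by 0.83.

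Among regulators of Ilp transcription, 2 of 4 tested (50%) rose in INPUT, beside 32.3% of all probe sets. In IP 0 of 4 rose, beside 27%. With 4 genes, these shares cannot be told from those of all probe sets. The 2 of INPUT were sug, a sugar-responsive zinc finger factor (1.02), and ey, the Pax6 factor that acts on Ilp5 in these cells (0.82). Of 10 genes for prohormone processing and dense-core vesicles, 3 (30%) rose and 0 fell in INPUT, with a median of 0.45, a share near the 32.3% of all probe sets. In IP 3 rose and 0 fell. Those of INPUT were Cadps, a factor of vesicle release (0.75), 7B2, a helper of a prohormone convertase (0.51), and Pal1, an enzyme of peptide amidation (0.47). Each of these 3 lost its call in 4 of 13 fits that left out 1 array, with adjusted p up to 0.119, 0.171 and 0.210.

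Genes downstream of the peptides were called about as often as all probe sets or less. Of 13 tested for the insulin receptor, binding proteins and signalling, out of 23 listed, 3 rose and 1 fell in IP, with a median of 0.18 beside 0.17 for all probe sets. In INPUT 4 rose and 1 fell, with a median of 0.07 beside 0.23. In INPUT, Sdr rose by 0.83, gig, a negative regulator of TOR, by 0.59 and chico, the insulin receptor substrate, by 0.54. InR, the receptor itself, fell by 0.67, and by 0.32 on centred arrays, where it did not pass. Without single arrays the call was lost for gig and chico in 3 of 13 fits and for InR in 2. Against 32.3% of probe sets called higher in INPUT, the receptor, signal and neuropeptide lists had larger shares, and the processing (30%) and signalling (30.8%) lists like ones. In IP, against 27%, the receptor, signal and signalling (23.1%) lists had smaller shares and the neuropeptide and processing (30%) lists like ones. The regulator list, with 4 genes tested, was left out of this comparison. All these lists hold few genes and were chosen with earlier results known, so the shares are descriptions.

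In wild-type heads the neuropeptide, signalling, regulator and processing lists had members called on both sides in IP against INPUT on centred arrays, and the receptor and signal lists on the higher side alone. Over all probe sets 29.7% were called higher and 29.6% lower. On the deposited scale the median of all probe sets was -1.30, so each direction here is relative to the array median. Of 28 neuropeptide genes, 5 (17.9%) were higher in IP and 11 (39.3%) lower, with a median of -0.09. Among the lower were Orcokinin (-1.10) and Capa (-1.01), and Ilp2 was thus one of several peptide mRNAs below the array average. Nplp1 (1.22) and SIFa (1.21) were higher, though both were at -0.10 on the deposited scale. Of 14 receptors on insulin-producing cells 9 (64.3%) were higher and 0 lower, with Lkr at 1.33. Lkr was at 0.01 on the deposited scale, where it did not pass, and near the filter value, with wild-type medians of 4.24 in IP and 4.29 in INPUT. Of 10 signals 5 (50%) were higher and 0 lower, with CCHa2 at 2.45 and daw, an activin-like ligand, at 2.27. Of 13 insulin signalling genes 8 (61.5%) were higher and 5 (38.5%) lower, among them Lar, a receptor tyrosine phosphatase (1.57), ImpL2, a secreted binder of insulin-like peptides (1.40), and raptor, a TOR complex subunit (-1.37). On the deposited scale Lar was at 0.25 and ImpL2 at 0.09, and neither passed. The regulators sug (2.32) and foxo (-0.41) were called in opposite directions. Of 10 processing genes 2 (20%) were higher and 4 (40%) lower, with Fur2, a proprotein convertase, at -0.78. The amidation genes went both ways, with Pal1 at 0.92 (-0.40 on the deposited scale), Pal2 at -0.71 and Phm at -0.46.

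Of the other 5 insulin-like peptide genes, 2 had a probe set. Ilp7, known from neurons of the abdominal nerve cord, did not pass the filter, with 3.86 ± 0.08 log2 units in wild-type INPUT (SD, n = 11). Ilp8, a larval growth signal, averaged 4.58 in Tim-Dcr INPUT (n = 2) and 4.68 ± 0.11 in wild-type INPUT (SD, n = 11). Its genotype difference was -0.13 in INPUT (adjusted p = 0.694) and -0.19 in IP (adjusted p = 0.561), and turned to 0.22 and 0.16 on centred arrays. Ilp8 was higher in wild-type IP than INPUT by 0.98 on centred arrays (adjusted p = 1.42e-06), and was at -0.34 on the deposited scale. Its level was near the filter value of 4, at 4.35 ± 0.45 in wild-type IP (SD, n = 12), with a lowest value of 3.52.

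Ilp2 and Ilp5 lie close together on chromosome arm 3L. In the RefSeq annotation of release 6 the order is Ilp1, Ilp2, Ilp3, Ilp4, CG43897, Ilp5, with the first 4 inside the span of CG32052 and Ilp5 inside that of CG43897. Among 11 other genes tested within 8 genes on each side, 4 rose and 1 fell in IP with a median of 0.12, and 3 rose and 0 fell in INPUT with a median of 0.21. Those shares are near that of all probe sets. CG32052 rose by 0.85 in IP and 1.17 in INPUT, and Cdk8, a kinase of the Mediator complex, by 0.71 and 1.35. CG43897 was at 0.26 in IP and 0.15 in INPUT and did not pass (adjusted p = 0.414 and 0.649).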

How the data were processed

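The deposited values were log2 signals per probe set of 1-colour Affymetrix Drosophila arrays, and GCRMA is the tool that the submitters' processing notes name for the authors' step. The version of GCRMA and the set of arrays it was run on were not given in the sources read. Per the labels' protocols, TRIzol was used for extraction and the Affymetrix IVT kit for labelling. Precision is limited by the number of arrays. Titles gave the fraction and time of each sample. They named a genotype for the 4 Tim-Dcr arrays alone, and none for the arrays called wild type here. For replicate 1 of wild-type IP at ZT3 the description names another time, so the title and the time point entry were used. No label names a batch.

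Of 18952 probe sets, 183 controls were left out. The filter asked for a log2 value above 4 on 3 or more arrays and kept 15517 probe sets in wild type and 15835 with Tim-Dcr included. The probe set with the highest mean stood for a gene. Gene symbols are those of the platform annotation, and older list symbols were matched through RefSeq gene IDs, so that 175 of 224 list symbols had a probe set.

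Tests used limma 3.58.1 in R 4.3.3 with eBayes and Benjamini-Hochberg adjustment over all probe sets kept, at 0.05, and were checked on simulated data. IP against INPUT was the mean over 6 times on median-centred arrays (11 residual degrees of freedom). Rhythm and Tim-Dcr offsets used the deposited scale (17 and 13 residual degrees of freedom). Tim-Dcr had 1 array per fraction and time, so its spread comes from the wild-type replicates and the agreement of both times. Permutation tests used scipy 1.17.1.

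Same-numbered IP and INPUT arrays of one time deviated together, with correlations across probe sets of 0.381 to 0.664 at 5 times, against a median of 0.0753 and a range of -0.262 to 0.405 between times. Same-numbered arrays were treated as pairs because every same-time correlation was over 0.1, although the highest value between times exceeds 2 of the 5 at the same time.

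The members, gene lists, tests and the rule for named genes (the members, their 5 most correlated genes, all other insulin-like peptides, and up to 4 members of largest change per list) were chosen with earlier results of these data known. The lists were other insulin-like peptides, insulin signalling, Ilp regulators, receptors and signals of insulin-producing cells, prohormone processing, neuropeptides and 8 cell type marker lists, written from knowledge of the literature. Alternatives were the scale, the centring, the filter, replicate blocks, the choice of wild-type arrays, single times and leaving out each array.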

Additional observations from a re-analysis of the deposited data

Results flagged for a closer look

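A few genes on the lists beside Ilp2 and Ilp5 were singled out because a genotype effect differed between fractions or between times by the test of that difference in limma. The Tim-Dcr offset was smaller in IP than in INPUT for CCHa2 by -1.27, for grnd by -1.2 and for Gbp1, a growth-blocking peptide, by -0.89 on the log2 scale. With adjusted p = 0.0492 for CCHa2 and 0.0463 for Gbp1, these calls were lost in 20 and 21 of 27 fits that left out 1 array, and in 3 and 2 of 5 other settings. That of grnd was lost in 4 of 27 and in 1 of 5. The Tim-Dcr offset was more negative at ZT15 than at ZT3 for the trypsin gene alphaTry, by -3.24 in IP and -2.74 in INPUT. For the male reproductive gene Dup99B it was more negative at ZT15 by -3.44 in IP. Each Tim-Dcr time had 1 array per fraction, so a difference between times cannot be told from a difference between single samples. The mean log2 value of the male markers also differed between the 2 Tim-Dcr arrays of a fraction. It was 4.62 and 7.04 in INPUT and 3.65 and 5.31 in IP. For the midgut markers it was 5.41 and 6.11 in INPUT. Neither Ilp2 nor Ilp5 was among the genes singled out. Groups of 1 or 2 arrays were too small to look for outlying arrays.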

How the results depend on the processing

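The lower Ilp2 signal in IP and the Tim-Dcr rise of Ilp2 in INPUT and of Ilp5 in both fractions kept their direction and call under all alternatives run. Leaving out each array gave -0.845 to -0.738 for Ilp2 and 0.152 to 0.378 for Ilp5 in IP against INPUT. For Tim-Dcr it gave 0.576 to 0.843 (Ilp2) and 1.33 to 1.85 (Ilp5) in IP, and 1.14 to 1.36 and 1.90 to 2.11 in INPUT. The Ilp5 value for IP against INPUT was -1.05 on the deposited scale. It passed with the pairs as a replicate block, fixed (0.26, adjusted p = 0.0136) or random (0.26, adjusted p = 0.0336), and without IP ZT7 replicate 2 (0.38). The block changed no other call of Ilp2 or Ilp5. The Tim-Dcr rise of Ilp2 in IP did not pass with the offset at ZT3 alone (0.73) or at ZT15 alone (0.69), nor without either Tim-Dcr IP array. Its ZT15 minus ZT3 difference was 0.175 on centred arrays. The cause was not tested, except that these settings use fewer arrays or another scale.

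On the deposited scale, IP minus INPUT was -0.34 for Ilp8, -0.10 for Nplp1, -0.10 for SIFa and -0.40 for Pal1. The Tim-Dcr value of Ilp8 was 0.22 in INPUT on centred arrays, 0.10 at ZT15 alone, 0.16 in IP on centred arrays and 0.21 at ZT3 alone. Leaving out arrays gave -0.58 to 0.21 in IP and -0.45 to 0.10 in INPUT.

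Over all probe sets, 9199 were called for IP against INPUT and 15006 on the deposited scale. Rhythm calls were 144 in IP, 75 with any difference between times and 56 with IP arrays alone. In INPUT they were 92, 46 with any difference between times, 46 without ZT23 replicate 1 and 56 without ZT11 replicate 1. For the difference of both they were 0, and 1 with any difference between times or with paired differences. Tim-Dcr calls were 6961 in IP, 11306 on centred arrays, 4533 with ZT3 and ZT15 arrays alone and 3025 without the Tim-Dcr IP array at ZT15. They were 7805 in INPUT, 12212 on centred arrays and 3916 without the Tim-Dcr INPUT array at ZT15. For the difference of both they were 432, 154 on centred arrays, 1 with ZT3 and ZT15 arrays alone, 1283 against all wild-type arrays, 720 with the replicate block and 12 to 934 without single arrays. Detection calls were not among the values used here, so signal over background could not be judged.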
